A study of Mus musculus with 2 samples.

Results

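The 6 Dlx genes of the mouse are Dlx1, Dlx2, Dlx3, Dlx4, Dlx5 and Dlx6, and they were examined here as the 3 pairs Dlx1-Dlx2, Dlx3-Dlx4 and Dlx5-Dlx6 in open chromatin of the embryonic neural tube. They were taken by name, as 6 of 21853 protein-coding genes of the GENCODE vM21 annotation (assembly mm10). A peak was assigned to a pair when it overlapped the 500 bp to either side of a transcription start site (TSS), when its centre lay between the paired genes, or when it was distal. Distal means that its centre was over 1 kb from every protein-coding TSS and nearest to a TSS of the pair. Peaks between the genes and most of those in the gene bodies are therefore also counted as distal. By these rules or by lying in a gene body, 174 of 199653 peaks in replicate 1 and 133 of 154324 peaks in replicate 2 were placed at the 3 pairs.

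The study mapped DNase I cleavage by sequencing (DNase-seq), which finds accessible DNA, in neural tube of B6NCrl embryos at 11.5 days, male and female pooled. There was 1 group with 2 libraries, numbered as biological replicates 1 and 2, and no treatment, allele or second tissue. Both libraries carry the same donor label, and the labels do not state how many embryos were pooled or which levels of the neural axis were taken. Peaks are windows of 150 bp and hotspots are longer stretches of raised cleavage, both called by the authors in each library separately. With 2 libraries of 1 group no test across conditions is possible, so values are given per library, with the mean ± SD (n = 2) where they are averaged. The spread is that between these libraries and may be technical.

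Dlx genes encode homeodomain transcription factors related to Distal-less of the fly. In mammals each pair lies tail to tail, so that both genes are transcribed toward each other, and enhancers shared by the partners are known from the sequence between them. Dlx1, Dlx2, Dlx5 and Dlx6 act in the ventral forebrain, where they drive the formation of GABAergic neurons, and in the pharyngeal arches, where their nested expression patterns the jaw. Dlx3 and Dlx4 are known from the arches, surface ectoderm, skin and placenta.

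High-scoring accessible sites of the 3 pairs, though not all of the strongest, are printed here so that their composition can be read beside their values. For each pair the lines give the peak between the genes and the distal peak outside the pair, and for Dlx2 and Dlx6 the promoter peak, that had the highest mean percentile of score over both libraries, among peaks found in both. The letters come from the RefSeq genome GRCm38.p6, the assembly of mm10, run 5′ to 3′ on the strand named (the strand of the gene for promoters), and capitals mark CpG dinucleotides, the sites of DNA methylation in mammals. No promoter is printed for Dlx4 and Dlx5, whose strongest shared promoter peaks were centred in exon sequence, that of Dlx5 reaching past the start of the gene. That of Dlx3, which ran past the TSS into the gene, is not printed either. Dlx1 had no overlapping peaks of which both lay inside the promoter window.
Between Dlx1 and Dlx2, chr2:71543136-71543285, plus strand: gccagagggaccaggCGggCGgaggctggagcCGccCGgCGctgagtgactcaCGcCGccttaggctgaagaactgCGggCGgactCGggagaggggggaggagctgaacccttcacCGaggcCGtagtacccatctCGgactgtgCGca
Dlx2 promoter, chr2:71546756-71546905, minus strand: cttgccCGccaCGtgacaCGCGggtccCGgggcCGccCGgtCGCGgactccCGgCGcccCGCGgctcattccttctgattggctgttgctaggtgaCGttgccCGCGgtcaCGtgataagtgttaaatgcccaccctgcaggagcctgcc
Distal to Dlx2, chr2:71655816-71655965, plus strand: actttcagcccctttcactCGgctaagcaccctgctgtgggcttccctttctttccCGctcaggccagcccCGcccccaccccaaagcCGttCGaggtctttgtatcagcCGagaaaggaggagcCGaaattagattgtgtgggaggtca
Between Dlx3 and Dlx4, chr11:95126616-95126765, plus strand: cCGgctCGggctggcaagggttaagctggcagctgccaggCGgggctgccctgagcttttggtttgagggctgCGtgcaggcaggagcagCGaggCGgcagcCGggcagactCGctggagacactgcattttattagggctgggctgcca
Distal to Dlx3, chr11:95118616-95118765, plus strand: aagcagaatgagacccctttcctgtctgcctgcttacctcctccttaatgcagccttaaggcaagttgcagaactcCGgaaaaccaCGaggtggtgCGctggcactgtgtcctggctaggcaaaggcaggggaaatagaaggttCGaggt
Between Dlx5 and Dlx6, chr6:6874396-6874545, plus strand: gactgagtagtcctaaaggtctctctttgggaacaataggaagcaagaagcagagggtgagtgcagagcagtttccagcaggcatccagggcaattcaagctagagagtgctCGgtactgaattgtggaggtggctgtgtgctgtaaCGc
Dlx6 promoter, chr6:6862816-6862965, plus strand: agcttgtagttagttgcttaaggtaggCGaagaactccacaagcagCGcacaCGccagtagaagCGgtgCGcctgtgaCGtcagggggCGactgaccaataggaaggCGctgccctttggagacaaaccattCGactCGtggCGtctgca
Distal to Dlx5, chr6:6885036-6885185, plus strand: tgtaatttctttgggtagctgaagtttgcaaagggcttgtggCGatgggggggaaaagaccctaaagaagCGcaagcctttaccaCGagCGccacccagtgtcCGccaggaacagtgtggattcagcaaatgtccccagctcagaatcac

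The Dlx2 promoter peak had 17 CpGs in 150 bases and the between peak of Dlx1-Dlx2 had 14. The between peak of Dlx5-Dlx6 had 2 CpGs, and that of Dlx3-Dlx4 had 8. These peaks were picked for their scores and do not stand for their intervals. Over all peaks between Dlx1 and Dlx2 the median was 4 CpGs in replicate 1 and 4.5 in replicate 2. Between Dlx5 and Dlx6 it was 1 and 3.5. Over all peaks on the nuclear chromosomes the median was 3 CpGs in each library, and over all promoter peaks it was 11 in replicate 1 and 12 in replicate 2. A CCAAT box (CCAAT or its reverse complement ATTGG), a common promoter element bound by NF-Y, can be read in both promoters printed, as ccaat in Dlx6 and as attgg in Dlx2. The strongest shared promoter peaks of Dlx3 and Dlx4 also held it and that of Dlx5 did not, so 4 of 5 such peaks had it in the windows of replicate 1. The same letters, on either strand, were in 20.5% of all 27088 promoter peaks of replicate 1 and in 19.97% of the 25984 of replicate 2. The E-box CACGTG occurred 2 times in the Dlx2 peak (5.28% and 5.26% of promoter peaks held it), and TGACGTCA, the full cAMP response element, once in the Dlx6 peak (1.65% and 1.73%). The shares are over all promoter peaks, strong or weak and shared or not. No share over the strongest shared promoter peaks of all genes is given, so the sets compared are unlike. These 3 motifs were searched for after the sequences had been read, and a match is a description of letters, not of binding.

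All 6 genes had a promoter peak in both libraries. Over all protein-coding genes 68.5% had one in replicate 1, 67.7% in replicate 2 and 66.5% in both, so a promoter peak by itself does not set the Dlx genes apart. Dlx1 had 4 promoter peaks in replicate 1 and 3 in replicate 2, over 3 annotated TSSs, and Dlx2 had 2 in each library, over 1 TSS. Dlx3 had 1 peak in each library and Dlx4 had 2. Dlx5 and Dlx6, with 2 TSSs each, both had 3 in replicate 1 and 2 in replicate 2. Only Dlx1 among the 6 had 3 or more in both libraries, which 9.55% of all genes had, and genes with more TSSs have longer windows.

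Scores differ in scale between the libraries (median 45 in replicate 1 and 26 in replicate 2), so a peak is placed by its percentile within its own list. The strongest promoter peak of Dlx6 had a score of 130 in replicate 1 (percentile 96.2) and 102 in replicate 2 (percentile 93.7), in the same window in both, centred 444 bp upstream of the TSS. The Dlx2 peak, also in the same window in both, had a score of 118 (percentile 93.4) and 101 (percentile 93.5), and its centre lay 76 bp upstream. For Dlx3 the scores were 113 (percentile 92.2) and 78 (percentile 88.6), centred 9 and 29 bp upstream. In these 3 genes the strongest promoter peak was at the same site in both libraries.

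The other 3 promoters gave lower or less settled values. Dlx5 had a strongest promoter peak of score 93 (percentile 85.0) in replicate 1 and 64 (percentile 83.8) in replicate 2, centred 38 and 118 bp inside the gene. Dlx4 had a score of 83 (percentile 79.8) in replicate 1, at a site 273 bp inside the gene, and 37 (percentile 66.0) in replicate 2, at another site 87 bp upstream. Dlx4 was thus the lowest of the 6 in each library. For Dlx1 the values were 85 (percentile 80.9), 523 bp upstream of the nearest TSS, and 101 (percentile 93.5), 569 bp downstream of one. This change of site comes from the edge of the window, because the peak of score 120 (percentile 93.9) in replicate 1 that matches the second site began 515 bp from the TSS and its counterpart of score 101 began 495 bp from it. Apart from that edge, the nearest peak left out lay 548 bp away in Dlx1 in replicate 2 (score 45), and in the other 5 genes from 597 bp, in Dlx3 (scores 81 and 34), upward.

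Hotspots covered the promoter windows more evenly in replicate 1. The share of the window in hotspots was 100% in both libraries for Dlx2, 99.1% and 83.8% for Dlx1, 95.8% and 89.6% for Dlx5 and 81.8% and 72.1% for Dlx3. It was 100% in replicate 1 and 52.2% in replicate 2 for Dlx4, and 100% and 46.4% for Dlx6. A hotspot touched the promoter in 68.9% and 68.1% of all genes. Over the genome replicate 1 had 1.29 times as many peaks and 1.54 times as many hotspot bases as replicate 2. At the Dlx genes some counts went the other way, such as 15 peaks in replicate 1 and 16 in replicate 2 between Dlx1 and Dlx2. The genome-wide gap stands beside every difference between the libraries given here, and its part in those differences was not tested.

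Accessibility ran through whole gene bodies at Dlx2, Dlx1 and Dlx5. Hotspots covered 100% of the Dlx2 body in both libraries, 100% and 82.4% of Dlx1 and 100% and 92.9% of Dlx5. For Dlx6 the shares were 87.5% and 44.8%, for Dlx4 69.3% and 35.3% and for Dlx3 45.3% and 27.6%. Dlx1 held 8 peaks in its body in replicate 1 and 9 in replicate 2, of which 8 in each were in exons, and Dlx2 held 5 and 4, of which 4 in each were exonic. Dlx5 held 8 in each library (4 and 3 in exons), Dlx6 and Dlx4 held 7 in each (Dlx6 3 in exons in each, Dlx4 4 and 3), and Dlx3 held 3 and 2 (0 and 1). Dlx3 was lowest in peaks and in hotspot share in both libraries.

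**Figure D1:**
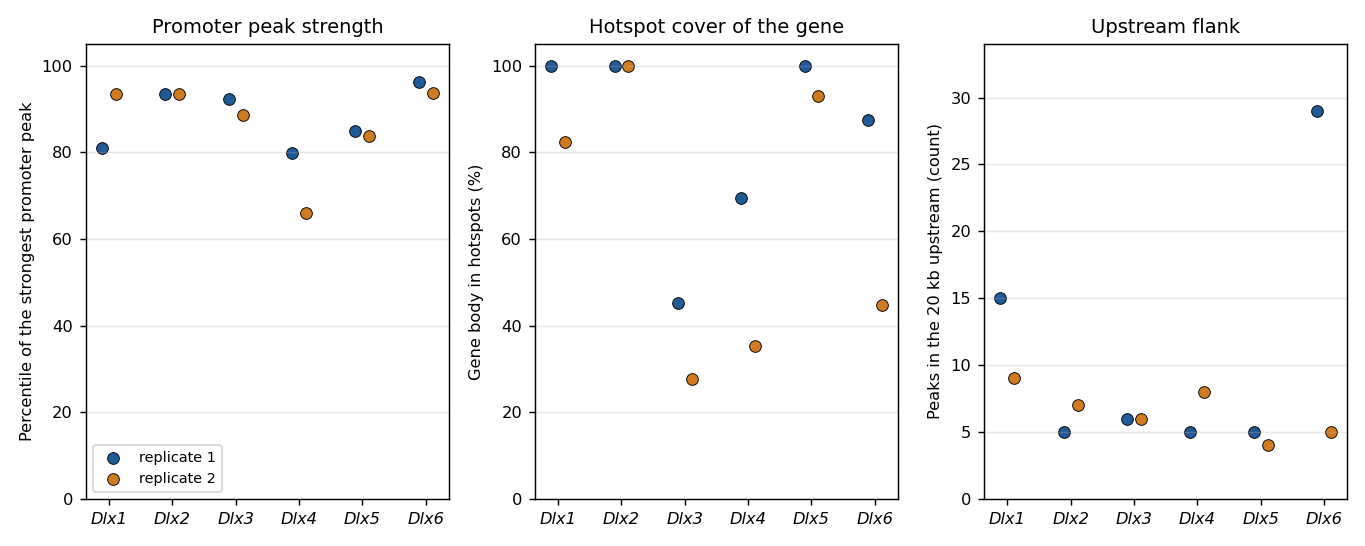
Values of the 6 Dlx genes in each library (blue, replicate 1, orange, replicate 2), with the percentile of the strongest promoter peak on the left, the percent of the gene body in hotspots in the middle and the number of peaks in the 20 kb upstream on the right. Dlx4 has the lowest promoter percentile in each library, Dlx3 the lowest hotspot share, and the upstream counts of Dlx6 are 29 in replicate 1 and 5 in replicate 2.

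The interval between the paired genes was densely accessible at Dlx1-Dlx2 and Dlx5-Dlx6 and sparsely so at Dlx3-Dlx4. Dlx1 (chr2:71528113-71533981, plus strand) and Dlx2 (chr2:71543408-71546754, minus strand) are 9.43 kb apart, and 15 peaks in replicate 1 and 16 in replicate 2 lay between them. Dlx6 (chr6:6863334-6868568, plus strand) and Dlx5 (chr6:6877805-6882085, minus strand) are 9.24 kb apart, with 18 and 12 peaks. Dlx3 (chr11:95120119-95125296, plus strand) and Dlx4 (chr11:95140447-95146263, minus strand) are 15.2 kb apart, the longest interval of the 3, and had 1 and 2 peaks. Per kb this was 1.64 ± 0.0750 (SD, n = 2) for Dlx1-Dlx2, 1.62 ± 0.459 for Dlx5-Dlx6 and 0.0990 ± 0.0467 for Dlx3-Dlx4. Dlx1-Dlx2 and Dlx5-Dlx6 changed order between the libraries and did not differ beyond their spread, whereas Dlx3-Dlx4 was below both in each library.

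Hotspots gave the same order at the low end. They covered 98.9% of the Dlx1-Dlx2 interval in replicate 1 and 87.3% in replicate 2 (mean 93.1% ± 8.21, SD, n = 2). In the Dlx5-Dlx6 interval they covered 99.6% and 56.2% (mean 77.9% ± 30.7), and in the Dlx3-Dlx4 interval 3.82% and 4.2% (mean 4.01% ± 0.271). The ranges of Dlx1-Dlx2 and Dlx5-Dlx6 overlap, and Dlx3-Dlx4 lies far below them in each library. Counting bases that any hotspot covered, 86.7% were covered in both libraries between Dlx1 and Dlx2, 56.4% between Dlx5 and Dlx6 and 49.0% between Dlx3 and Dlx4, beside 53.0% over the nuclear chromosomes. Because replicate 1 hotspots covered 98.9% and 99.6% of the Dlx1-Dlx2 and Dlx5-Dlx6 intervals, the first 2 shares were nearly fixed by the cover in replicate 2. They do not measure how well the libraries agree.

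**Figure D2:**
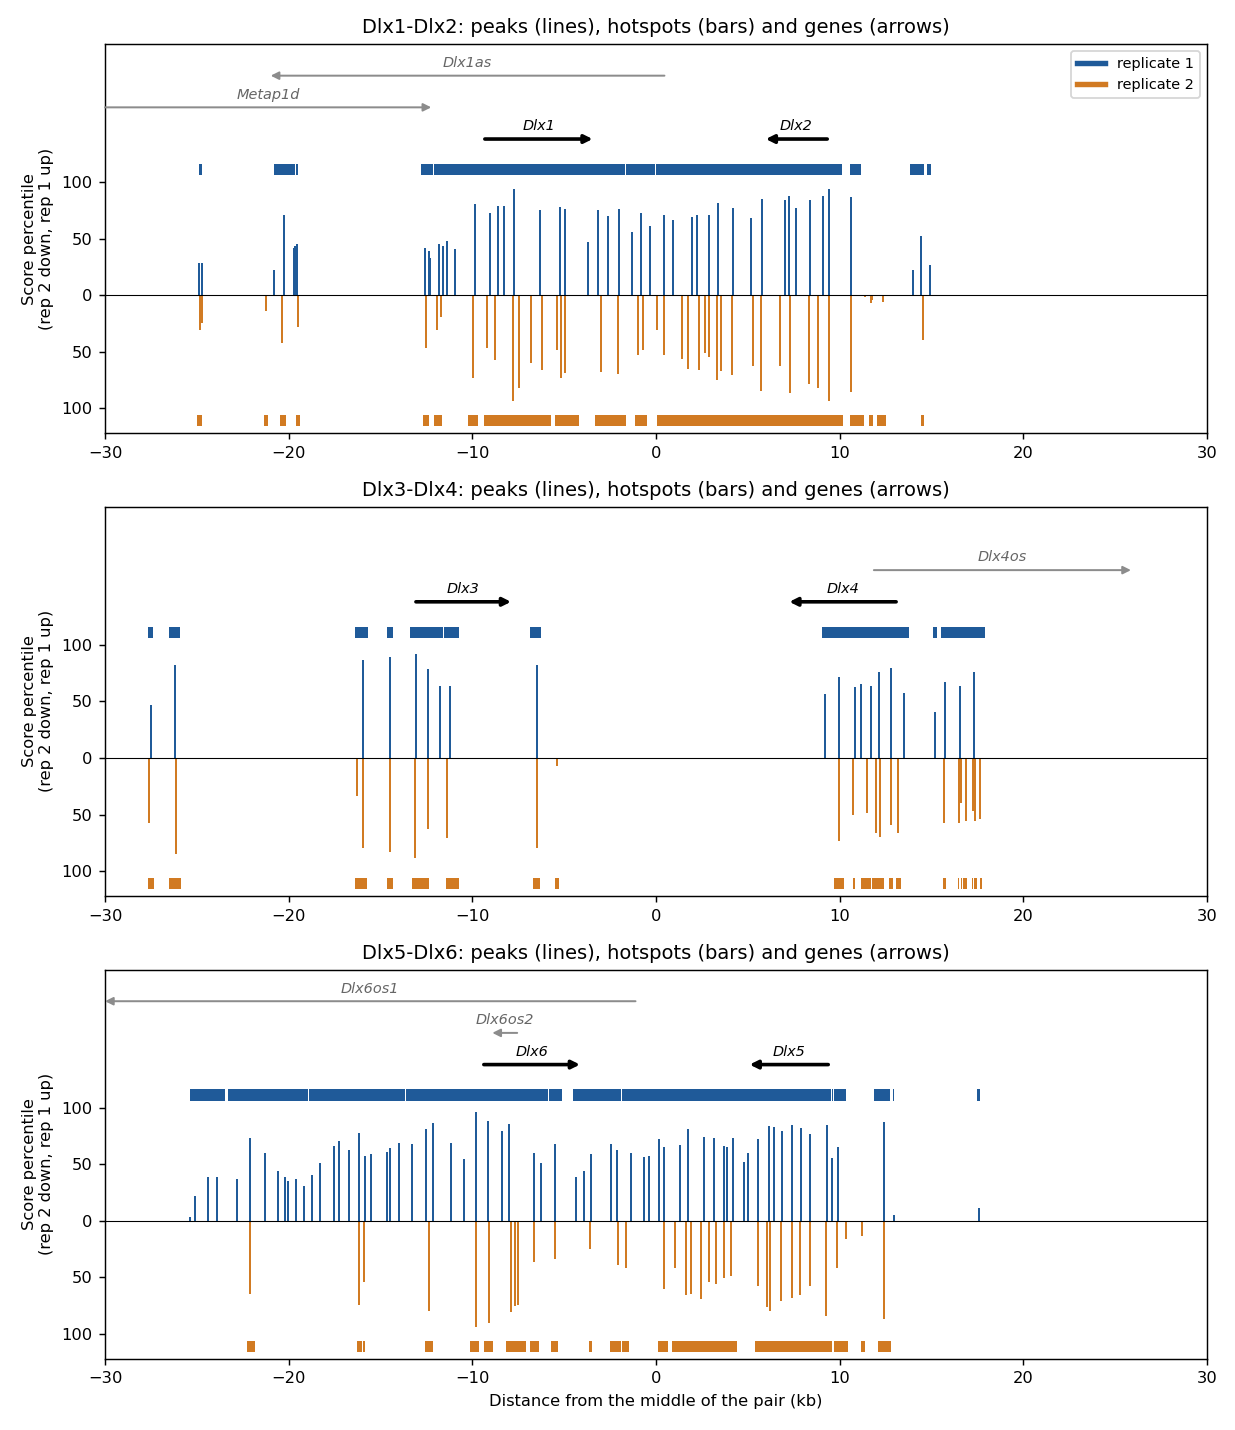
Peaks (lines, height is the percentile of score within the library's list), hotspots (bars) and annotated genes (arrows in the direction of transcription) within 30 kb of the middle of each pair, with replicate 1 upward in blue and replicate 2 downward in orange. Peaks fill the spaces between the genes at Dlx1-Dlx2 and Dlx5-Dlx6, the space between Dlx3 and Dlx4 holds 1 peak in replicate 1 and 2 in replicate 2, and the stretch to the left of Dlx6 is filled in replicate 1 and nearly empty in replicate 2.

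Single hotspots reached lengths that few others in the genome had. In replicate 1 a hotspot of 11429 bp, chr6:6870834-6882262, ran from within the Dlx5-Dlx6 interval through Dlx5 and held 22 peaks, and it was number 8 by length of 162801 hotspots, whose median was 276 bp. A second of 10141 bp, chr2:71537412-71547552, covered the Dlx2 side of its interval and Dlx2 itself, held 15 peaks and was number 24. In replicate 2 the hotspot over the same side of Dlx1-Dlx2, chr2:71540491-71547640, was 7150 bp long with 10 peaks and was number 2 of 132619, whose median was 235 bp. The longest at Dlx5-Dlx6 in replicate 2 was 3505 bp, number 151. At Dlx3-Dlx4 the longest were 4429 bp in replicate 1, over Dlx4, and 820 bp in replicate 2, over the Dlx3 promoter. A short break can split a hotspot, and 8, 12 and 13 separate hotspots touched the spans of Dlx1-Dlx2, Dlx3-Dlx4 and Dlx5-Dlx6 in replicate 2, against 3, 5 and 4 in replicate 1.

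The intervals were next set beside other neighbouring protein-coding genes that are transcribed toward each other and have an interval 0.5 to 2 times as long. At least 1 peak lay between 50.9% of the 1076 such neighbours of Dlx1-Dlx2 length in replicate 1 and 42.8% in replicate 2, 50.3% and 42.2% of the 1061 of Dlx5-Dlx6 length, and 59.2% and 51.3% of the 1066 of Dlx3-Dlx4 length. Having a peak there is thus common, and the density is what differed. The median of these neighbours was 0.0549 peaks per kb in replicate 1 and 0 in replicate 2 at Dlx1-Dlx2 length. In replicate 1 as many peaks per kb as between Dlx1 and Dlx2 were found in 3 of the 1076, namely Dlx6-Dlx5, Lfng-Ttyh3 and Xrn2-Nkx2-4, and in replicate 2 in 0. The hotspot share of Dlx1-Dlx2 was reached by 1 of them in replicate 1, Dlx6-Dlx5, and by 0 in replicate 2.

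Dlx5-Dlx6 held a like place in both libraries, though not by the same neighbours. In replicate 1 its peaks per kb were reached by 1 of 1061, Lfng-Ttyh3, and its hotspot share by 0. In replicate 2 the density was reached by 4, Copz1-Gpr84, Dlx1-Dlx2, Lfng-Ttyh3 and Tgfb1-Ccdc97, and the hotspot share by 3, Copz1-Gpr84, Dlx1-Dlx2 and Tbx2-Gm11444. Dlx3-Dlx4 lay among the ordinary values, with as many peaks per kb in 50.8% of its 1066 neighbours in replicate 1 and 22.5% in replicate 2, and as high a hotspot share in 34.1% and 20.4%. Xrn2-Nkx2-4 and Tgfb1-Ccdc97 are named because they made up these counts, after their values were seen.

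**Figure D3:**
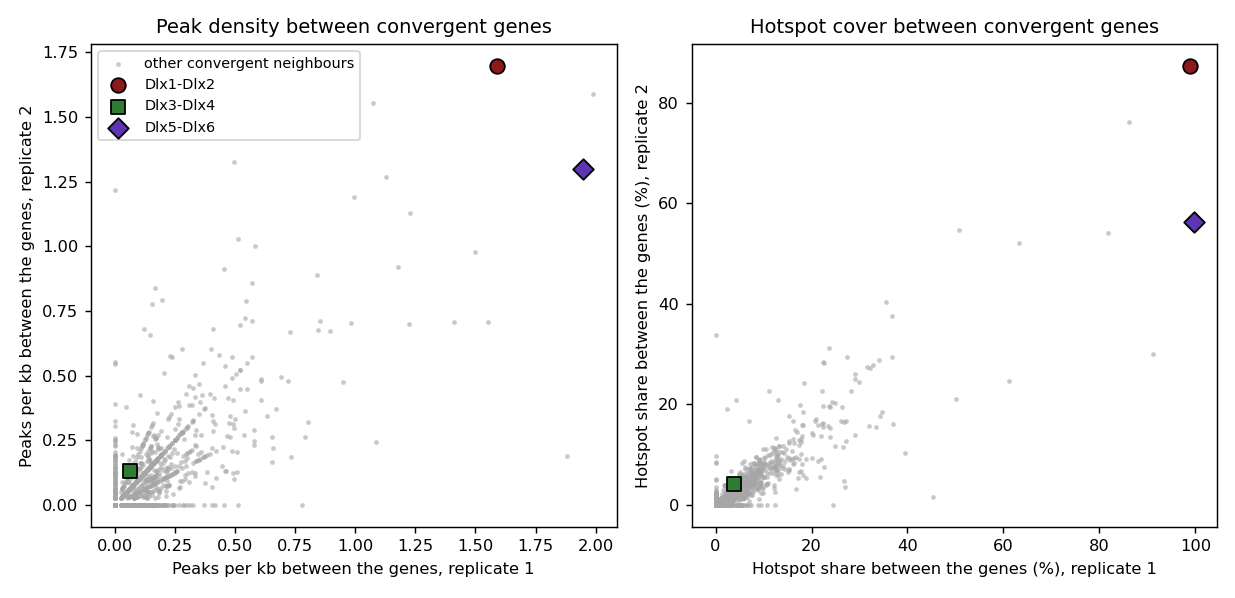
Peaks per kb (left) and percent of bases in hotspots (right) between convergent neighbouring genes, replicate 1 on the x axis and replicate 2 on the y axis, for the 3 Dlx pairs and the other 1568 convergent neighbours with an interval of 5 to 40 kb. Dlx1-Dlx2 and Dlx5-Dlx6 lie at the outer edge of both plots, and Dlx3-Dlx4, with 0.0660 and 0.132 peaks per kb, lies within the mass of other genes.

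By Euclidean distance over 4 values (peaks per kb and hotspot share in each of the 2 libraries, each divided by its SD), the convergent neighbours most like Dlx1-Dlx2 were Copz1-Gpr84 at 3.22, Dlx6-Dlx5 at 5.11 and Lfng-Ttyh3 at 5.36. Copz1 encodes a coatomer subunit and Gpr84 a receptor for fatty acids, and 9 and 13 peaks lay between them in replicates 1 and 2. Most like Dlx5-Dlx6 were Lfng-Ttyh3 at 2.37, with 10 and 8 peaks, Tbx2-Gm11444 at 4.82, with 6 in each, and Dlx1-Dlx2 at 5.05. Lfng encodes a glycosyltransferase that modifies Notch, and Tbx2 a T-box transcription factor. Dlx3-Dlx4 had much closer matches, Olfml2b-Atf6 at 0.150, Cdh3-Gm10073 at 0.172 and Hist1h2bp-Hist1h2bq at 0.172, with 1 to 3 peaks in each library. The distances put Dlx1-Dlx2 and Dlx5-Dlx6 in a sparse part of the range and Dlx3-Dlx4 in a crowded one.

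The scores of the peaks between the genes are given by their range. Between Dlx1 and Dlx2 the scores ran from 50 over a median of 69 to 93 in replicate 1 and from 18 over 35 to 66 in replicate 2, with median percentiles of 71.3 and 63.9. Of these peaks 15 of 15 and 13 of 16 exceeded the median score of their list. Between Dlx5 and Dlx6 the scores ran from 41 over 60 to 86 and from 16 over 27 to 40, with median percentiles of 64.7 and 52.6, and 17 of 18 and 6 of 12 exceeded the list median. The peak between Dlx3 and Dlx4 had a score of 87 (percentile 82.0) in replicate 1 and 56 (percentile 79.9) in replicate 2, in the identical window chr11:95126616-95126765. It was as high in its list as the strongest peak between Dlx5 and Dlx6 (86, percentile 81.4) in replicate 1, and above that interval's strongest (40, percentile 68.9) in replicate 2. The second peak there in replicate 2 had a score of 9 (percentile 7.27).

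Recurrence between the libraries was counted window by window. Between Dlx1 and Dlx2, 10 of 15 peaks in replicate 1 overlapped a peak of replicate 2, and 11 of 16 in replicate 2 overlapped one of replicate 1, by at least 1 bp. Between Dlx5 and Dlx6 the counts were 8 of 18 and 9 of 12, and between Dlx3 and Dlx4 1 of 1 and 1 of 2. Over all peaks 52.6% of replicate 1 and 69.3% of replicate 2 overlapped a peak of the other library, so these shares are near those of the whole lists. When a hotspot of the other library was asked for instead, 13 of 15 and 16 of 16 qualified at Dlx1-Dlx2, 12 of 18 and 12 of 12 at Dlx5-Dlx6 and 1 of 1 and 1 of 2 at Dlx3-Dlx4, beside 56.6% and 79.4% of all peaks. Hotspots of replicate 1 covered 98.9% of the Dlx1-Dlx2 interval and 99.6% of the Dlx5-Dlx6 interval. The counts of 16 of 16 and 12 of 12 were thus nearly fixed beforehand and do not measure recurrence. Over the whole spans the median distance from a peak to the nearest one of the other library was 130 and 140 bp at Dlx1-Dlx2, 120 and 80 bp at Dlx5-Dlx6 and 80 bp in both at Dlx3-Dlx4. Peaks followed each other at a median of 580 and 560, 530 and 540, and 640 and 750 bp in these pairs. At such spacing unrelated peaks would also lie near each other, so the distances alone do not show recurrence.

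Distal peaks were most numerous at Dlx1-Dlx2 and fewest at Dlx3-Dlx4 in both libraries. Dlx1-Dlx2 had 67 in replicate 1 and 62 in replicate 2 (mean 64.5 ± 3.54, SD, n = 2), Dlx3-Dlx4 had 22 and 21 (mean 21.5 ± 0.707) and Dlx5-Dlx6 had 64 and 33 (mean 48.5 ± 21.9). The stretch of genome nearest to each pair was 176, 105.4 and 198 kb, so the density was 38.0 and 35.2 distal peaks per 100 kb at Dlx1-Dlx2, 20.9 and 19.9 at Dlx3-Dlx4 and 32.3 and 16.7 at Dlx5-Dlx6. In replicate 1 Dlx5-Dlx6 was close to Dlx1-Dlx2, and in replicate 2 it was below Dlx3-Dlx4 in density. Of the distal peaks, 38 of 67 and 42 of 62 overlapped a peak of the other library at Dlx1-Dlx2, 11 of 22 and 13 of 21 at Dlx3-Dlx4 and 23 of 64 and 25 of 33 at Dlx5-Dlx6, beside 48.1% and 66.4% of all distal peaks. The counts depend on which genes may claim a peak, since with TSSs of noncoding genes included the means were 27.5, 13.5 and 10 and Dlx5-Dlx6 came last. With the TSSs of all transcripts of the coding genes, an alternative chosen after seeing the data, the mean was 46.5 at Dlx1-Dlx2 and 48.5 at Dlx5-Dlx6, so that these pairs changed places in the mean. The farthest distal peak was 110 kb from its TSS in both libraries at Dlx1-Dlx2, 81.6 kb in both at Dlx5-Dlx6 and 56.2 and 39.7 kb at Dlx3-Dlx4.

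By gene, Dlx2 had 39 and 40 distal peaks over 129 kb and Dlx1 had 28 and 22 over 47.2 kb. Dlx6 had 44 and 15 over 152 kb, Dlx5 20 and 18 over 46.1 kb, Dlx4 14 and 13 over 70.7 kb and Dlx3 8 and 8 over 34.7 kb. The median over all genes was 3 and 2 peaks. As many as Dlx2 had were found in 3.54% of all genes in replicate 1 and 1.66% in replicate 2. As many as Dlx6 had were found in 2.75% and 10.3%, and as many as Dlx3 had in 27.1% and 21.1%. Per 100 kb Dlx1 was highest of the 6, at 59.3 and 46.6, a density that 0.618% and 1.1% of genes reached. The end of Metap1d lies 2.92 kb from the Dlx1-Dlx2 span, whereas 199 kb without a coding gene separate Dlx2 from Itga6.

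**Figure D4:**
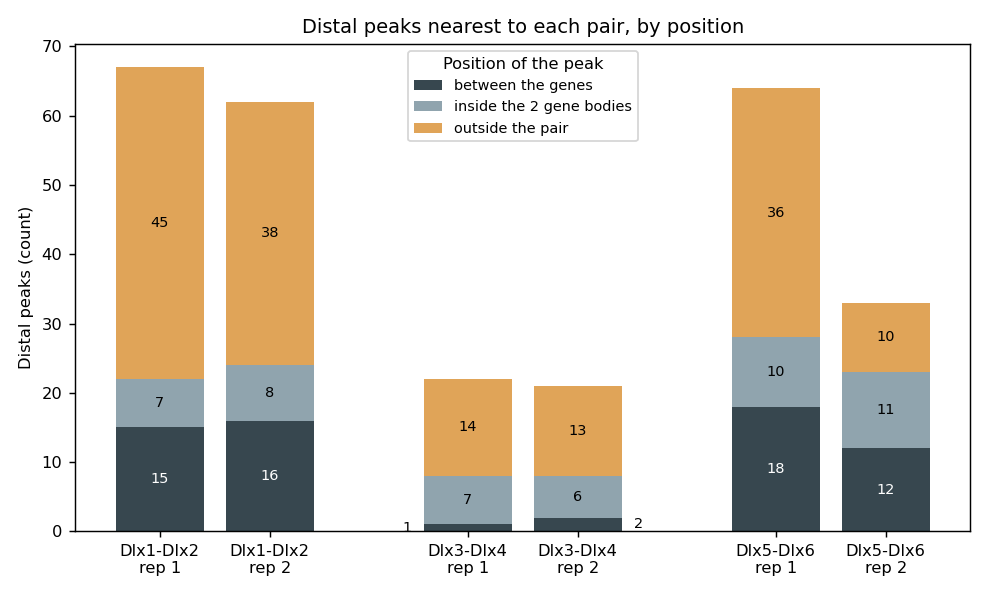
Number of distal peaks (over 1 kb from every protein-coding TSS and nearest to the pair) in each library, split into those between the genes, inside the 2 gene bodies and outside the pair. The bars of Dlx1-Dlx2 and Dlx3-Dlx4 are alike in both libraries, and at Dlx5-Dlx6 the part outside the pair is 36 in replicate 1 and 10 in replicate 2.

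The strong distal peaks of Dlx1-Dlx2 lay in the empty stretch beyond Dlx2. A peak 34436 bp from the Dlx2 TSS had a score of 124 (percentile 94.8) in replicate 1 and 95 (percentile 92.4) in replicate 2, one at 109136 bp, printed above as chr2:71655816-71655965, had 123 (percentile 94.6) and 99 (percentile 93.2), and one at 52276 bp had 107 (percentile 90.5) and 75 (percentile 87.8). Each was found in both libraries and stood above the highest peak between the genes, at 93 and 66. At Dlx3-Dlx4 the strongest lay upstream of Dlx3, at 1429 bp with scores of 102 (percentile 88.8) and 63 (percentile 83.4), at 2909 bp with 96 and 55, and at 13109 bp with 88 and 66. The site at 1429 bp was the highest of these in replicate 1, and the one at 13109 bp in replicate 2. At Dlx5-Dlx6 the strongest lay 3025 bp upstream of Dlx5, with 99 (percentile 87.6) and 71 (percentile 86.5) in the same window in both libraries. The nearest protein-coding gene need not be the one that a distal site acts on.

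Among the upstream stretches of the 6 Dlx genes, the libraries differed most at Dlx6, within the antisense transcript Dlx6os1. In the 20 kb upstream of Dlx6 there were 29 peaks in replicate 1 and 5 in replicate 2, of which 4 in each overlapped a peak of the other library, and hotspots covered 79.0% and 8.66% of it. The difference of 24 peaks was reached by 2 of 21853 genes, Dlx6 itself and Zdbf2, a paternally expressed gene with 39 and 7 peaks, named because it made up this count. The median of all genes was 2 peaks in each library. In the other Dlx genes the counts were 15 and 9 for Dlx1, 5 and 7 for Dlx2, 6 and 6 for Dlx3, 5 and 8 for Dlx4 and 5 and 4 for Dlx5. On the far side of Dlx5 the libraries were thus alike, and the gap in the distal counts of Dlx5-Dlx6 came from the Dlx6 side, with 44 distal peaks for Dlx6 against 15. The label of replicate 2 lists a further sequencer model that replicate 1 lacks, and its part in this difference was not tested.

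Most annotated starts of the noncoding genes that overlap the pairs had a peak nearby, but no share over all noncoding TSSs is given beside these counts. Peaks in the spans of Dlx1-Dlx2 and Dlx5-Dlx6 followed each other at medians of 530 to 580 bp. A window of 500 bp to either side therefore meets a peak at most positions there, whether or not a start is present. Dlx1as, antisense to Dlx1 (chr2:71516454-71537891), had a peak within 500 bp of 4 of 4 TSSs in both libraries, and 28 and 21 peaks lay within it. Dlx4os had one at 1 of 1 in both, with 7 and 11 peaks within. Dlx6os1 (chr6:6820189-6871592), an RNA known to act with DLX proteins, had one at 2 of 3 TSSs in replicate 1 and 1 of 3 in replicate 2, with 41 and 15 peaks within and hotspots over 45.5% and 10.2%. Dlx6os2 had one at 1 of 1 in both, with 2 and 3 peaks. A short transcript also annotated as Dlx6os1 (chr6:6871488-6871633) had a peak at 1 of 1 TSS in both libraries. DNase-seq does not tell the strands apart, so a peak in an overlap belongs to both genes.

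The coding neighbours had fewer distal peaks than the Dlx gene beside them in all cases but Tac4 in replicate 1. These are counts by nearest TSS, and the stretch of genome nearest to each neighbour is not given beside them. Several distal peaks counted for Dlx1 in each library lay inside the Metap1d gene, so the rule itself lowers the count of Metap1d. Metap1d, next to Dlx1, had 7 and 4, and Itga6, beyond Dlx2, had 17 and 14. Sem1, beyond Dlx6, had 16 and 11, and Sdhaf3, beyond Dlx5, had 10 and 6. Itga3, beside Dlx3, had 5 and 2, and Tac4, a tachykinin gene beyond Dlx4, had 15 and 11 against 14 and 13 for Dlx4. Tac4 was the only one of these 6 neighbours without a promoter peak in either library.

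Base composition differed between the intervals. GC content was 50.8% between Dlx1 and Dlx2, 52.5% between Dlx3 and Dlx4 and 45.6% between Dlx5 and Dlx6, against 41.7% over the nuclear chromosomes. The ratio of observed to expected CpGs was 0.456, 0.214 and 0.318 in these intervals, against 0.190. The Dlx3-Dlx4 interval, with its 1 and 2 peaks, was thus the richest in G and C and the poorest in CpGs for its composition. Among the letters of factor motifs searched on both strands in peaks of the spans, TAATTA, the homeodomain core, was in 4 of 28 and 2 of 29 peaks at Dlx1-Dlx2, in 0 of 11 in both at Dlx3-Dlx4 and in 0 of 33 and 0 of 27 at Dlx5-Dlx6, beside 3.35% and 2.15% of all peaks. ATTTGCAT, the POU octamer, was in 0 peaks of the 3 spans in both libraries, beside 1.15% and 0.874%. ACAAAG, a Sox motif, was in 1 and 0 peaks at Dlx1-Dlx2, 0 and 2 at Dlx3-Dlx4 and 2 and 3 at Dlx5-Dlx6, beside 14.8% and 12.5%.

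Other genes of the settings in which Dlx genes act were counted from lists. Both libraries had a promoter peak at 14 of 14 neural tube genes, such as Sox1, Pax6 and Olig2, at 15 of 15 genes of the forebrain GABAergic programme, such as Gsx2, Gad1 and Lhx6, and at 15 of 15 genes of the pharyngeal arch and jaw programme, such as Hand2, Barx1 and Gsc, beside 66.5% of all genes. Of 12 surface ectoderm genes 8 had one in both libraries, and Krt14, Krt8 and Trp63 had none in either, whereas Krt5 had one in replicate 2 only. The median number of distal peaks was 38.5 and 28 in the neural tube list, 38 and 22 in the GABAergic list, 26 and 27 in the arch list and 7 and 6 in the ectoderm list, against 3 and 2 over all genes. Open promoters were thus present in the neural list that the label names and also in lists of forebrain and arch, and peaks of a mixed tissue do not show which cells carried them, nor whether fewer cells were open or each cell less.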

How the data were processed

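DNase-seq peaks and hotspots of 2 neural tube libraries were analysed as the authors deposited them, per the labels on mm10, each library called alone. A peak's value is a score and a hotspot's is a −log10 q-value (from 1.30 to 6, then 100), both deposited by the authors. For the peak caller, aligner, thresholds, meaning of the score and read depth, the labels and headers used here state nothing, so no counting error can be attached. Repeated rows (45 and 22) were dropped. Hotspots covered 78.6 and 51.0 Mb. TSSs were the 54361 starts of protein-coding transcripts on chromosomes 1 to 19, X and Y in GENCODE vM21. Python 3.11.15, pandas 2.3.3, numpy 2.4.6 and pysam 0.24.0 were used, and the counting was tested on simulated intervals. The genes named are the 6 members, noncoding genes overlapping a pair, coding neighbours, the 3 convergent neighbours closest in value and list genes without a promoter peak in both libraries, with further list genes as examples. Genes that made up a count of 5 or fewer were named after their values were seen. Genes and lists were chosen with earlier results of these data known. Alternatives covered windows, distances, score and list length, intervals, the annotated TSSs and leaving out each library. Some results are not reported here.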

Additional observations from a re-analysis of the deposited data

How the results depend on the processing

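Of 57 alternative values, those that leave out 1 library not counted, 41 stayed close to the reported value (counts within 1.5 times of it, hotspot shares within 1 SD) and 16 did not. For hotspot shares this SD is that between the 2 libraries. A pair whose libraries differ more, such as Dlx5-Dlx6 (SD 30.7), thus stays close more easily than Dlx3-Dlx4 (SD 0.271). Promoter peaks averaged over both libraries fell to 3.50 at Dlx1-Dlx2 and 2.50 at Dlx5-Dlx6 within 200 bp, where Dlx5-Dlx6 was level with Dlx3-Dlx4, and rose to 5 at Dlx3-Dlx4 and 8 at Dlx5-Dlx6 within 1000 bp. With TSSs of all transcripts, an alternative chosen after seeing the data, Dlx1-Dlx2 had 9. Over whole spans the peaks numbered 28.5, 11 and 30 at Dlx1-Dlx2, Dlx3-Dlx4 and Dlx5-Dlx6, and the hotspot share of Dlx3-Dlx4 was 21.2%. Hotspots at the top deposited value alone gave 3.23% there. Distal peaks over 5 kb from a TSS numbered 7 at Dlx3-Dlx4 and 31 at Dlx5-Dlx6. With the nearest TSS of any annotated gene they numbered 27.5, 13.5 and 10, so that Dlx5-Dlx6 came below Dlx3-Dlx4. Among the higher-scoring 50% of each list Dlx1-Dlx2 had 35. Each of these alternatives narrows or widens what is counted. Leaving out 1 library leaves the values of the other, which are given above, and Dlx5-Dlx6 moved most (distal peaks from 33 to 64). No paired analysis was possible because there is 1 group. Read depth, which is unknown, limits any statement on sites found in 1 library only.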
